A study of Mus musculus with 3 samples.

Results

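Absorption of dietary protein depends on a chain of enzymes and carriers in the enterocyte, the absorptive cell of the intestinal villus. Peptidases of the brush border trim peptides at the cell surface, a proton-coupled carrier takes up short peptides, sodium-coupled carriers and exchangers take up free amino acids, and a further set of exchangers passes amino acids across the basolateral membrane to the blood. The exchangers are heterodimers, in which a light chain that carries the amino acids is held in the membrane by a heavy chain. In the intestinal epithelium these genes are switched on as cells leave the crypt, where the intestinal stem cells (ISCs) and the transit-amplifying (TA) cells divide, and many brush border genes are known targets of the transcription factors HNF4 and HNF1.

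A set of 9 such genes, of the 51912 in the gene list of the files, was described across cell types and between Arid3a cKO and WT. They were listed by name and role: Anpep and Ace for peptide digestion, Slc15a1 for peptide uptake, Slc6a19, Slc7a9 and Slc3a1 for apical amino acid uptake, and Slc7a7, Slc7a8 and Slc3a2 for basolateral transport. All 9 were found in the gene lists and all 9 passed the filter on low counts in each comparison.

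Single-cell RNA sequencing (scRNA-seq) of intestinal epithelium was available for 2 Arid3a cKO libraries, labelled VillinCreERT2_Arid3a fl/fl, and 1 WT library, which carries the VillinCreERT2 driver and was injected with tamoxifen like the cKO. The driver is a Cre recombinase under the Villin promoter, which is active in the epithelium of the intestine, so Arid3a was removed in the epithelium and not in the rest of the animal. Injections began at 8 to 10 weeks of age and tissue was taken 1 month after the first of them. The source was crypt preparations sorted for living, Epcam-positive, CD45-negative and CD31-negative cells, so villus cells are present only as far as this preparation holds them.

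Of 25554 barcodes, 5594 (21.9%) had at least 1000 genes and at most 15% mitochondrial unique molecular identifiers (UMIs, 1 per captured transcript), 2134 and 1550 in the cKO libraries and 1910 in WT. Their median depth was between 29895 and 35764 UMIs a cell. Clustering without the 9 genes gave 12 clusters, named by their leading gene and, where markers allowed, by cell class. The enterocyte-like class held 5 clusters, with 874 and 663 cells in cKO and 774 in WT (40.5 to 42.8% of each library), and the ISC- and TA-like class 1800 cells. Among the 5, the Gm42418 cluster (151 cells) has a weak name. It rests on 3 of 19 enterocyte markers at a fold of at least 1.5, with 0 among its 50 leading genes. A further cluster, led by Ccl20, held 15.6% and 12.6% of the cKO libraries and 10.8% of WT, and was left unnamed by the marker rule. Values are CPM, the UMIs of a gene over all UMIs of the same cells, scaled to a common total, and intervals on single libraries are 95% Poisson intervals that cover counting error only. Arid3a itself was at 0.592 and 0.894 CPM in the cKO libraries and 2.57 CPM in WT over all epithelial cells (42, 52 and 161 UMIs), a log2 fold change of -1.76 (SE 0.30, edgeR adjusted p = 0.0447). It was called under 3 of 7 alternatives (adjusted p from 2.63e-09 to 0.184, the last by DESeq2), and it was not called within enterocyte-like cells (edgeR adjusted p = 0.240) or ISC- and TA-like cells (0.172).

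All 9 genes lie on the GRCm38 assembly as single protein-coding loci. Slc7a7 (ENSMUSG00000000958, chromosome 14, 54369442 to 54417780) and Slc7a8 (ENSMUSG00000022180, chromosome 14, 54722209 to 54781946) are both on the minus strand, and Slc15a1 (ENSMUSG00000025557, 121459621 to 121505252, minus) is on the same chromosome. Slc7a9 (ENSMUSG00000030492, 35448796 to 35466036, plus) and Anpep (ENSMUSG00000039062, 79821803 to 79861059, minus) are on chromosome 7. Slc6a19 (ENSMUSG00000021565, 73679745 to 73704865, minus) is on chromosome 13, Slc3a1 (ENSMUSG00000024131, 85028376 to 85064236, plus) on chromosome 17, Slc3a2 (ENSMUSG00000010095, 8706882 to 8723369, minus) on chromosome 19 and Ace (ENSMUSG00000020681, 105967945 to 105989964, plus) on chromosome 11. Slc6a19, Slc7a7, Slc3a1 and Ace overlap a gene on the opposite strand (Slc6a19os, Oxa1l, Prepl and Gm11651), and Anpep overlaps Gm44974 on its own strand. What these overlaps did to the counts was not tested.

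The windows around the start sites of 3 heterodimer genes are shown, since Slc3a1 and Slc7a9 encode the heavy and light chain of one apical exchanger and Slc3a2 the heavy chain used on the basolateral side. Each runs from 250 bases before to 50 after a RefSeq start on GRCm38.p6, and capitals mark the motifs that were searched on both strands. Slc3a1 is at chr17:85028097-85028396 (plus), Slc7a9 at chr7:35448842-35449141 (plus) and Slc3a2 at chr19:8713848-8714147 (minus).
Slc3a1: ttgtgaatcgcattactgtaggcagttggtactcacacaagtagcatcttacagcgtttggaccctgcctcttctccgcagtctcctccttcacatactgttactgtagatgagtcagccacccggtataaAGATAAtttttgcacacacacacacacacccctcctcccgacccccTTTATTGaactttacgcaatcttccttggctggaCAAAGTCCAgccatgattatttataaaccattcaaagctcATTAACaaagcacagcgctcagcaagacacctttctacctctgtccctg
Slc7a9: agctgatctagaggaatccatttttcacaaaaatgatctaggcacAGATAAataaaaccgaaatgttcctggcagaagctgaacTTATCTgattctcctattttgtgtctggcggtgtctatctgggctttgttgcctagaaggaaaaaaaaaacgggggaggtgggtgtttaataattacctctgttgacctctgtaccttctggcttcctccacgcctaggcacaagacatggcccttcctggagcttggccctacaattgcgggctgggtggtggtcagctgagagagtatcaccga
Slc3a2: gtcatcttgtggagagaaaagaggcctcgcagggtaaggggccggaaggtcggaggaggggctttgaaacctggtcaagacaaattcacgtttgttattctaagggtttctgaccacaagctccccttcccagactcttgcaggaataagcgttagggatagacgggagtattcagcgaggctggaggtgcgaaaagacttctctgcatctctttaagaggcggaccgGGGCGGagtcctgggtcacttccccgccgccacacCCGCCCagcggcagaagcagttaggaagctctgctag

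The Slc3a1 window held an HNF4 match (CAAAGTCCA), which begins 39 bases before the start, and a GATA match (AGATAA) 119 and a CDX match (TTTATNG) 73 bases before it, with an HNF1 arm (GTTAAT, here on the other strand) just after it. No match overlaps another. CAAAGTCCA was in 156 of 32851 windows (0.475%), AGATAA in 11.2%, TTTATNG in 10.9% and GTTAAT in 7.10%. Over the 15 windows of all 9 genes, the HNF4 and CDX letters were in Slc3a1 alone. The HNF1 letters were in Slc3a1 and Slc7a7, and the GATA letters in Slc3a1, Slc7a7 and Slc7a9. Slc7a9 had 2 GATA matches, 205 and 166 bases before its start, and none of the other motifs. Slc3a2 had 2 GC boxes (GGGCGG), a motif in 35.7% of windows, and no HNF4, HNF1, GATA or CDX letters. These are matches of letters in short windows, and nothing about binding was measured.

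All 9 genes were higher in enterocyte-like than in ISC- and TA-like cells, in each of the 3 libraries and without overlap. Each passed edgeR's quasi-likelihood test on UMIs summed per library and class, with the library as a block (adjusted p between 1.32e-10 and 5.24e-09). Among all 14171 genes tested, 81.7% were called, so a call alone is common here: 39.2% were called higher in enterocyte-like cells and 42.5% lower. The median log2 fold change of the 9 genes was 3.42 and that of all genes tested was -0.09.

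The largest differences were those of the peptide genes and Slc6a19. Slc15a1, which encodes the proton-coupled carrier of short peptides, was at 109 and 104 CPM in cKO and 120 CPM in WT enterocyte-like cells, against 2.13, 4.71 and 6.70 CPM in ISC- and TA-like cells, a log2 fold change of 5.23 (95% interval 4.77 to 5.70). Ace, a carboxypeptidase that removes dipeptides and is best known for making angiotensin, was at 253, 240 and 261 CPM against 8.01, 13.8 and 16.3 CPM (log2 4.91, interval 4.54 to 5.29). Anpep, the aminopeptidase that removes residues from the amino end of peptides, was at 1223, 1133 and 1361 CPM against 53.5, 63.1 and 89.8 CPM (log2 4.77, interval 4.51 to 5.02). Slc6a19, the sodium-coupled carrier of neutral amino acids, was close to these, at 143, 123 and 115 CPM against 4.67, 8.06 and 8.49 CPM (log2 4.74, interval 4.34 to 5.15). The intervals of these 4 genes overlap each other, so their order is not resolved.

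The 5 heterodimer genes rose less. Slc7a9, the light chain of the apical exchanger for cystine and cationic amino acids, was at 159, 155 and 161 CPM against 20.03, 24.8 and 21.2 CPM (log2 3.42, interval 3.24 to 3.60). Its heavy chain Slc3a1 was at 82.4, 79.2 and 89.2 CPM against 12.03, 12.8 and 14.3 CPM (log2 3.25, interval 3.09 to 3.41). Slc7a7, the basolateral light chain that exports cationic amino acids, was at 219, 197 and 193 CPM against 29.8, 30.8 and 29.6 CPM (log2 3.32, interval 3.16 to 3.48). These 3 differences overlap, and all are below those of the 4 genes above.

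Slc7a8, a basolateral light chain for neutral amino acids, and Slc3a2, the heavy chain of the basolateral exchangers, had the smallest differences. Slc7a8 was at 98.9, 82.1 and 103 CPM against 25.5, 25.2 and 29.1 CPM (log2 2.40, interval 2.24 to 2.55). Slc3a2 was at 243, 230 and 241 CPM against 74.5, 83.3 and 77.0 CPM (log2 2.17, interval 2.02 to 2.33). Slc3a2 is the only one of the 9 whose ISC- and TA-like level was over 30% of its enterocyte-like level in all 3 libraries (30.7, 36.3 and 32.0%), and Slc15a1 was at 1.95, 4.54 and 5.57%. With scaling by total UMIs in place of TMM the median of all genes moved by -0.57, 3553 genes were then called higher and 8411 lower, and the 9 differences ran from 1.60 to 4.67, all still called higher.

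**Figure D1:**
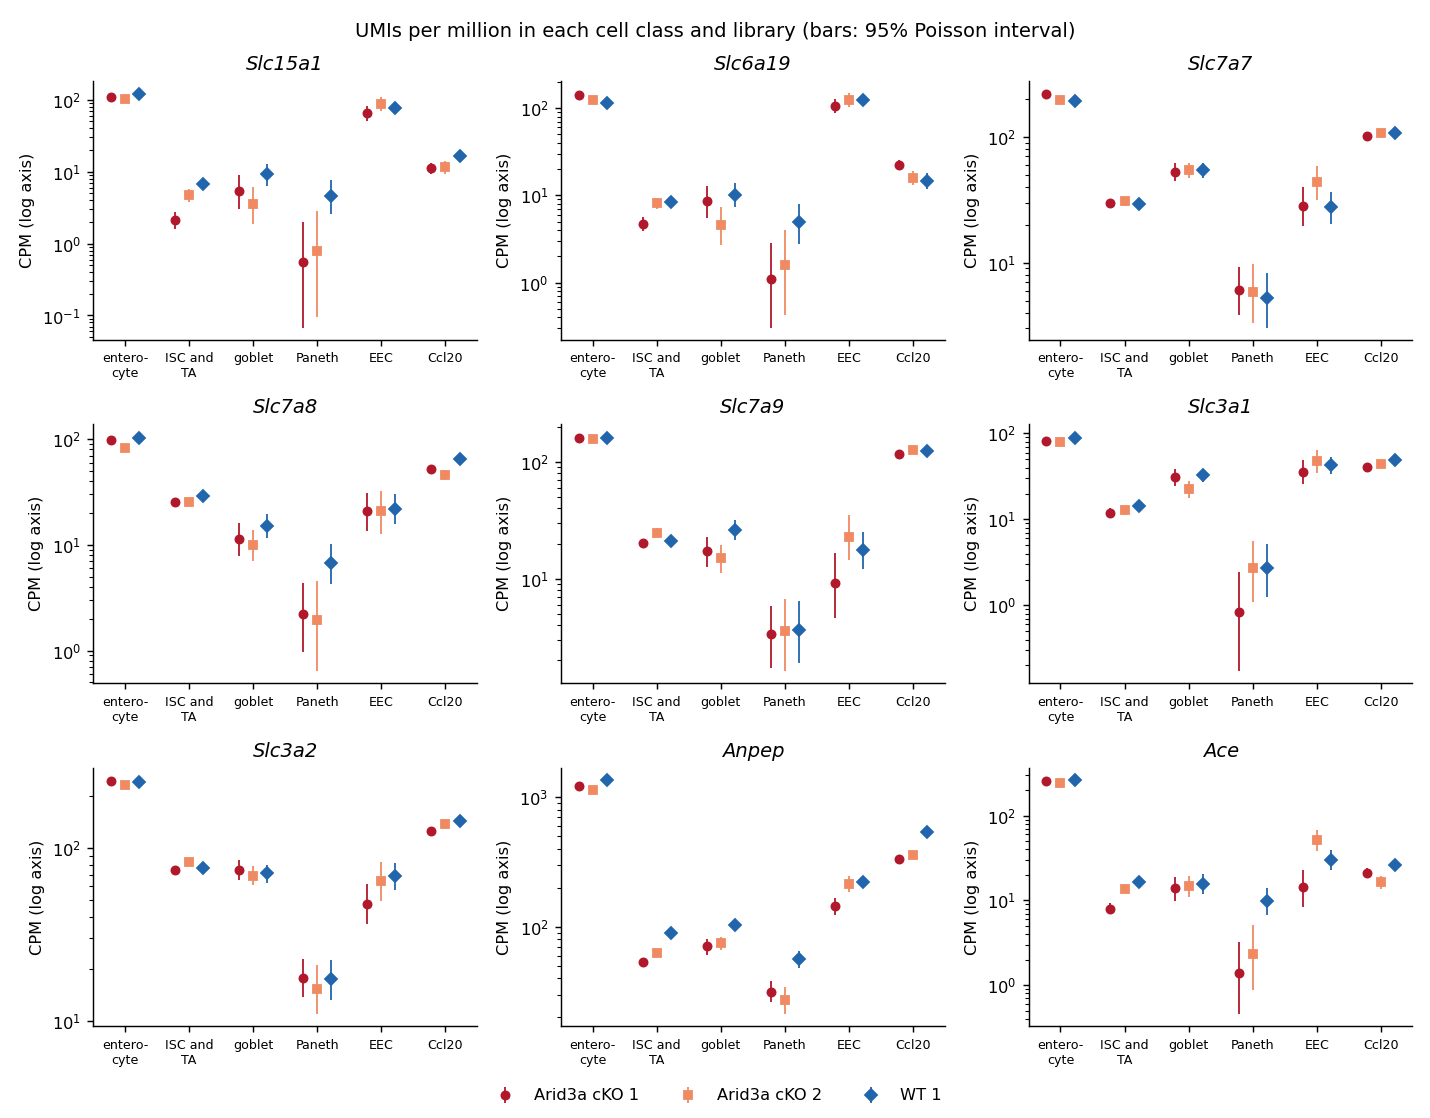
CPM on a log axis (vertical) of each gene in 6 groups of cells (horizontal; EEC is enteroendocrine-like, Ccl20 the unnamed cluster), with a point for each of the 3 libraries and 95% Poisson intervals as bars. Enterocyte-like cells are highest for 8 of the genes in every library, while Slc6a19 in enteroendocrine-like cells reaches 106 to 125 CPM, close to its 115 to 143 CPM in enterocyte-like cells.

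The low values of Slc15a1, Ace and Slc6a19 in ISC- and TA-like cells were set beside those in Paneth-like cells, secretory cells of the crypt base that should lack these genes. There Slc15a1 was at 0.556, 0.787 and 4.595 CPM, Slc6a19 at 1.11, 1.57 and 4.90 CPM and Ace at 1.39, 2.36 and 9.80 CPM. The ISC- and TA-like value was the higher one for each gene in every library, by the smallest ratio in WT. After each cell was thinned to 21000 UMIs, Slc15a1 was seen in 3.96, 7.43 and 8.33% of ISC-like cells and in 2.92, 6.40 and 9.03% of TA-like cells, against 0 of 28, 0 of 14 and 3 of 25 Paneth-like cells, where counts of 0 allow shares of up to 10.7 and 21.4%. The unthinned shares were 4.29, 9.01 and 10.1% in ISC-like and 2.94, 5.88 and 27.6% in Paneth-like cells, whose median depth was 119501 to 177412 UMIs against 27257 to 33370.5 in ISC-like cells. In WT the thinned Paneth-like share was thus not below the ISC-like one. The part of free RNA in these low levels was not tested.

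Slc7a7, Slc3a1 and Slc3a2 were measured at well over Paneth-like levels in other secretory cells. In goblet-like cells, which make mucus, Slc7a7 was at 53.1, 54.1 and 54.4 CPM and was seen in 62.5, 62.0 and 66.7% of thinned cells (55.6, 66.9 and 61.2% unthinned, median depth 23862 to 31507 UMIs), against 7.14, 7.14 and 8.00% of Paneth-like cells (44.1, 35.3 and 31.0% unthinned, at their greater depth). Slc3a1 reached 30.8, 22.3 and 32.4 CPM and Slc3a2 74.6, 69.1 and 71.2 CPM in the same cells. By contrast Slc15a1, Slc6a19, Anpep and Ace were in goblet-like cells at 3.41 to 8.87% of their enterocyte-like level, where Slc7a7 was at 24.2 to 28.2%.

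Enteroendocrine-like cells, the hormone cells that sense nutrients in the gut lumen, showed another selection of the genes. Slc6a19 was at 106, 125 and 124 CPM there, which is 74.5, 102 and 108% of its enterocyte-like level in the same library. Slc15a1 was at 64.4, 87.6 and 77.2 CPM, or 59.1, 84.4 and 64.2%, and Slc3a1 at 36.0, 48.0 and 42.5 CPM, or 43.7 to 60.6%. Anpep was at 11.8, 19.0 and 16.3% of that level in enteroendocrine-like cells, and Ace at 5.62, 21.3 and 11.6%. Slc7a9, the light chain that pairs with Slc3a1, was at 9.20, 22.9 and 17.7 CPM, or 5.80 to 14.8%. The class held 55, 50 and 97 cells, and no test between these classes was run beyond the intervals of single libraries.

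**Figure D2:**
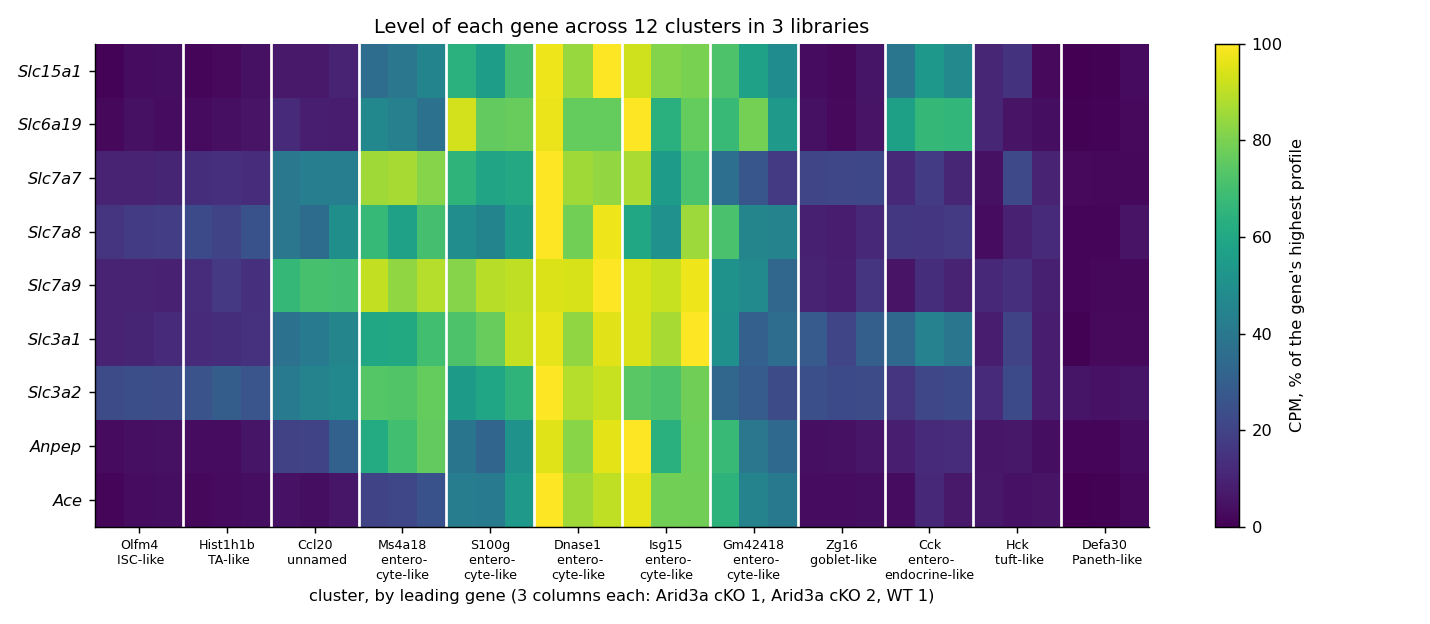
Level of each gene (rows) in 12 clusters, 3 columns each for Arid3a cKO 1, Arid3a cKO 2 and WT 1, as a percentage of the highest value in its row (colour). Slc15a1 and Ace are strong in the Dnase1 and Isg15 clusters and lower in the Ms4a18 cluster (Ace at 90.7 to 111 CPM), in which Slc7a7 and Slc7a9 are near their highest (207 to 220 and 147 to 160 CPM).

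Within the enterocyte-like class the genes did not share a single order of clusters. The Dnase1 cluster, whose leading genes include Cubn, Apoa4 and Lct, had the highest level of Ace, at 443, 381 and 400 CPM, and the Ms4a18 cluster had 90.7, 95.2 and 111 CPM. That is a mean log2 ratio, on the CPM + 5 scale, of -1.99 ± 0.22 (SD, n = 3 libraries). Slc15a1 differed by -1.17 ± 0.19 and Slc6a19 by -0.92 ± 0.12 between the same clusters, and in all 3 libraries the intervals of both clusters were apart. Slc7a7 differed by -0.08 ± 0.13 and Slc7a9 by -0.13 ± 0.07, and for each the intervals overlapped in at least 1 library. Anpep lay between, at -0.40 ± 0.20, with 1058, 1201 and 1309 CPM in the Ms4a18 cluster and 1639, 1418 and 1655 CPM in the Dnase1 cluster.

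The S100g cluster set the genes apart in another way. S100g encodes a calcium-binding protein of enterocytes. Against the Dnase1 cluster, Anpep was lower by -1.18 ± 0.23 on the log2 scale (668, 563 and 876 CPM), Ace by -0.996 ± 0.25 and Slc7a8 by -0.84 ± 0.12, with intervals apart in every library. Slc6a19 was at 175, 142 and 143 CPM in the S100g cluster and 182, 143 and 143 CPM in the Dnase1 cluster, a difference of -0.02 ± 0.03 with overlapping intervals in all 3 libraries. Slc7a9 (-0.14 ± 0.07) and Slc3a1 (-0.19 ± 0.17) were apart in 1 library of the 3.

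The unnamed Ccl20 cluster was between crypt and enterocyte levels for some genes and near enterocyte levels for others. Slc7a9 was at 117, 125 and 123 CPM there, which is 73.9 to 80.4% of its enterocyte-like level. Slc7a7, Slc7a8, Slc3a1 and Slc3a2 were at 46.2 to 63.3%. Slc15a1, Slc6a19 and Ace were at 6.78 to 15.5%, and Anpep at 27.4, 31.5 and 39.4%. All 9 genes were higher in the Ms4a18 than in the Ccl20 cluster with intervals apart in all 3 libraries, from a log2 ratio of 0.33 ± 0.11 for Slc7a9 to 2.00 ± 0.20 for Ace.

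The ISC-, TA- and enterocyte-like cells were ordered by diffusion pseudotime, computed without the 9 genes, and the order was cut into 5 bins of equal cell number. Bin 1 was 90.4% ISC-like and bin 2 84.7% TA-like, while bin 3 was mostly the Ms4a18 cluster (71.9%) and bins 4 and 5 were enterocyte-like throughout. Slc7a9 went from 23.7, 29.3 and 24.3 CPM in bin 2 to 132, 115 and 117 CPM in bin 3 and to 164, 162 and 179 CPM in bin 5, so most of its rise was before bin 4. Slc7a7 reached 237, 208 and 193 CPM in bin 4 and was at 215, 177 and 194 CPM in bin 5. Ace, by contrast, was at 62.1, 69.3 and 81.6 CPM in bin 3, 235, 229 and 251.3 CPM in bin 4 and 444, 375 and 422 CPM in bin 5. Slc15a1 and Slc6a19 also gained from bin 4 to bin 5 in every library. Slc15a1 went from 107, 99.4 and 119 CPM to 166, 146 and 169 CPM. Slc7a8 (from 101, 79.4 and 101 CPM to 115, 93.9 and 122 CPM), Slc3a1 and Slc7a9 had smaller gains there, also in every library. The 95% Poisson intervals of bins 4 and 5 overlapped in every library for Slc3a1 and in both cKO libraries for Slc7a9. For Slc7a8 they overlapped in Arid3a cKO 1.

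**Figure D3:**
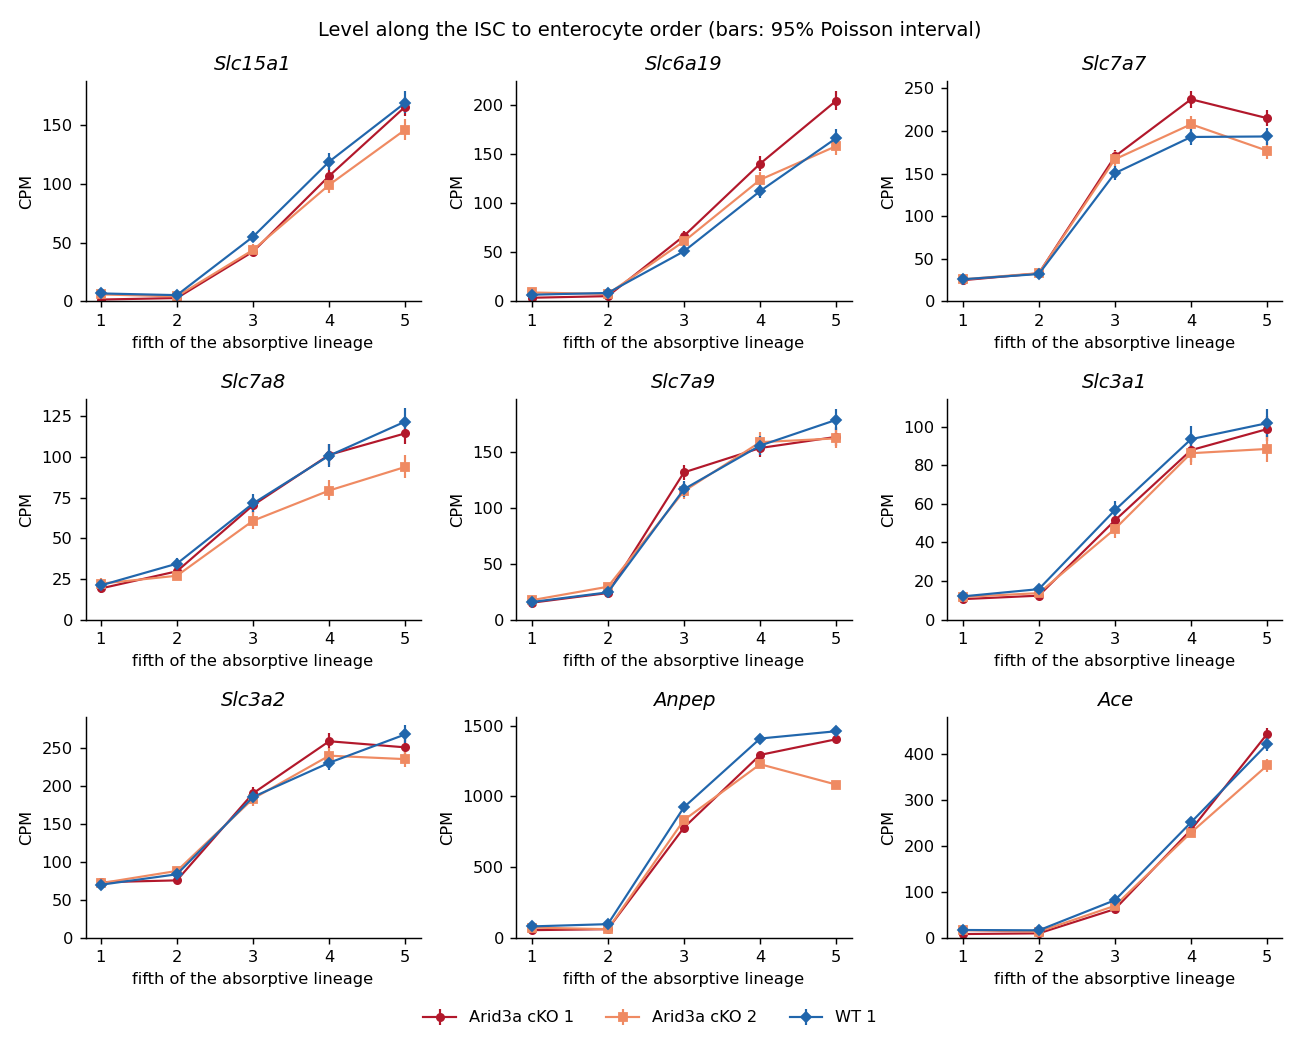
CPM (vertical) in 5 bins of equal cell number along the order from ISC-like to enterocyte-like cells (horizontal), 1 line for each library with 95% Poisson intervals as bars. Slc7a9, Slc7a7 and Slc3a2 have most of their rise by bin 3 or 4. Ace, Slc15a1 and Slc6a19 still rise to bin 5 in all 3 libraries. Slc7a8, Slc3a1 and Slc7a9 do so by less, and their intervals in bins 4 and 5 overlap in at least 1 library.

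The position of each gene on this order, its mean bin weighted by CPM, was computed in each library. It ran from 3.64, 3.59 and 3.65 for Slc3a2 to 4.45, 4.33 and 4.33 for Ace. The mean of the cKO libraries minus WT was between -0.06 for Slc7a9 and 0.07 for Slc15a1. The median of the 9 differences was -0.01. It was 0.045 with only the first cKO library and -0.053 with only the second.

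Likeness between the genes was described over 33 profiles, each a cluster in a library with at least 20 cells, by Pearson's r of log2(CPM + 5). The profiles share libraries and depth, so no p is given. Of 5381 genes at a mean of at least 20 CPM, Slc6a19 was the most like Slc15a1 and Slc15a1 the most like Slc6a19 (r = 0.981), and the gene Ceacam20 came next for both (0.980 and 0.976). Ace was most like Lct, the lactase of the brush border (0.985), with Asah2 and Sec14l2 following. Anpep was most like Aldh1a1, Dgat2 and Creb3l3 (0.971 to 0.974). Slc7a9 was most like Ces1f, Khk and Adh6a (0.982 to 0.984), which encode metabolic enzymes. Slc7a7 was most like Surf4, Tfg and Cox7a1 (0.961 to 0.964), Slc3a2 like Ppa1, Tmem41a and Tmem37 (0.966 to 0.972), Slc3a1 like Slc35f5, Fmo5 and Abcg2 (0.954 to 0.965) and Slc7a8 like Dab1, Lrp1 and Bpnt1 (0.951 to 0.956).

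Within the 13 enterocyte-like profiles the genes formed blocks that followed the heterodimers only in part. Slc3a2 was most like Slc7a7 (r = 0.971), its basolateral partner. Slc7a9, the partner of Slc3a1, was at 0.955 with Slc3a2 and 0.959 with Slc7a7. Slc3a1 was at 0.891 with its own partner Slc7a9 and at 0.835 and 0.875 with Slc7a7 and Slc3a2. Slc15a1, Ace and Slc6a19 formed another block (0.812 to 0.980). The values of Slc7a7, Slc7a9 and Slc3a2 with this block were lower, from 0.065 for Slc7a7 with Slc6a19 to 0.307 for Slc3a2 with Slc15a1. Slc3a1 was less apart from it, at 0.558 with Slc15a1, 0.454 with Ace and 0.367 with Slc6a19. Slc7a8 was most like Anpep (0.861). These profiles include the Gm42418 cluster, whose cells had a median of 11.8% mitochondrial UMIs and 0.478 times the UMIs of their libraries, and in which Slc7a7, Slc7a9 and Slc3a2 were low (42.7 to 100 CPM).

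**Figure D4:**
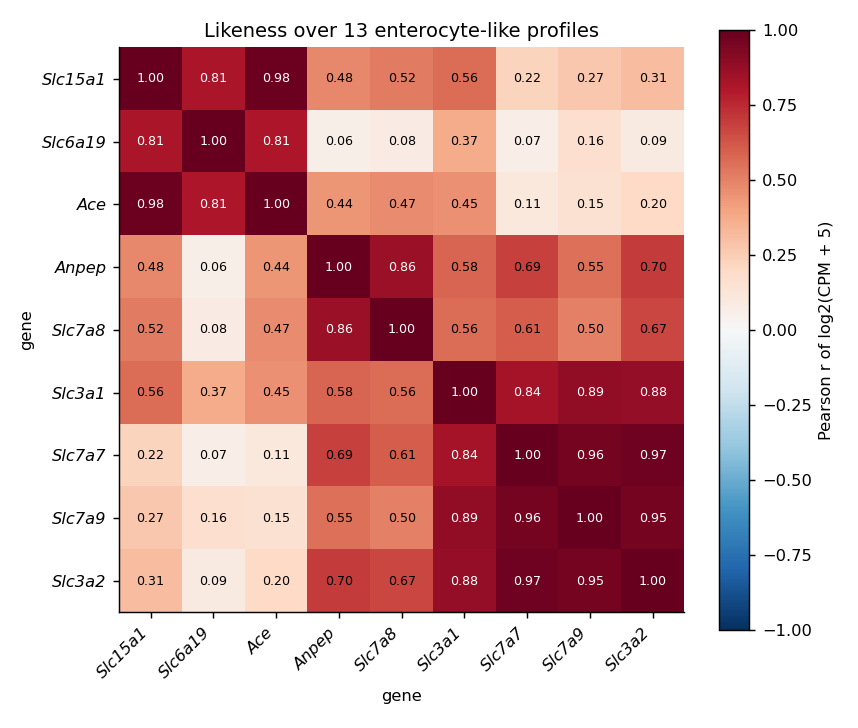
Pearson's r of log2(CPM + 5) between each pair of the 9 genes (both axes) over 13 enterocyte-like profiles, with the value printed in each cell and shown by colour from -1 to 1. Slc15a1, Slc6a19 and Ace sit together at 0.81 to 0.98, and Slc3a2, Slc7a7 and Slc7a9 at 0.95 to 0.97.

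Whether the loss of Arid3a changed these genes was asked first in enterocyte-like cells. None of the 9 passed the edgeR test between cKO and WT there, none had an unadjusted p under 0.05, and DESeq2 called 0 of them. Of all 12795 genes tested, 1.39% were called, 0.469% higher and 0.922% lower. The replicate spread in this test comes from the 2 cKO libraries alone, and the single WT library is assumed to vary like them. It was moderated over all genes tested, so the interval of a gene does not rest on its own cKO pair alone. The labels do not say whether replicates are separate animals, so p-values measure the spread between these libraries.

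**Figure D5:**
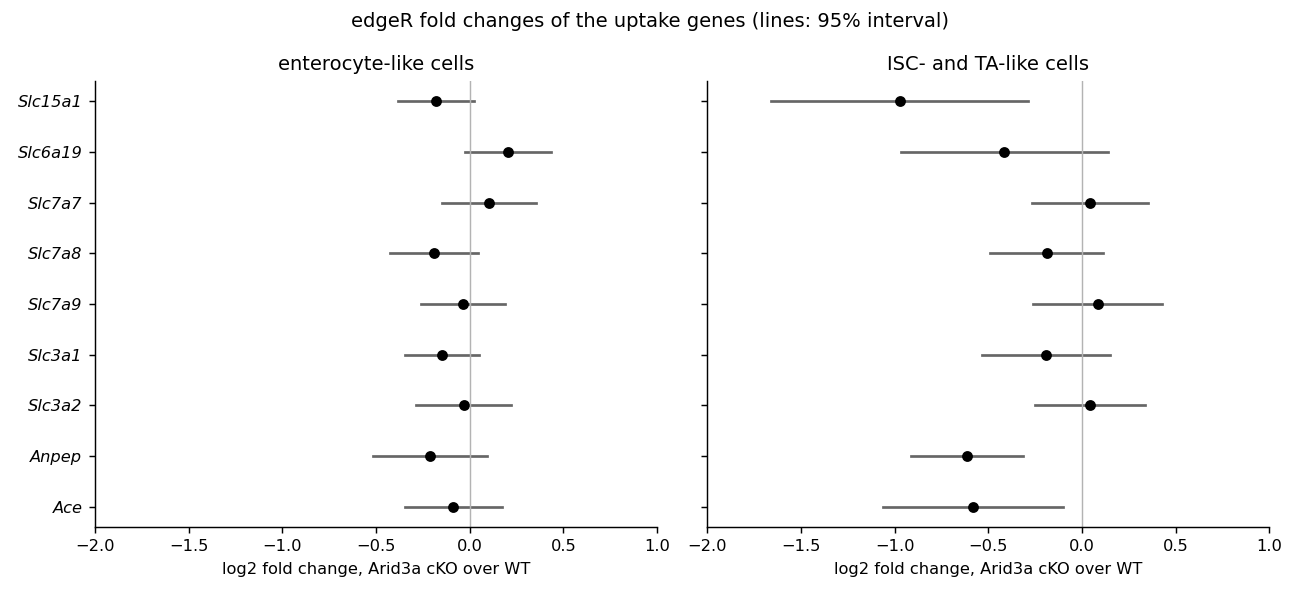
edgeR log2 fold changes of Arid3a cKO over WT (horizontal) for the 9 genes (vertical) in enterocyte-like cells (left) and ISC- and TA-like cells (right), with 95% intervals as lines. On the left all 9 intervals include 0, and on the right those of Slc15a1, Anpep and Ace lie below 0 before adjustment.

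For the apical genes the differences in enterocyte-like cells were small in both directions. Slc6a19 was at 143 and 123 CPM in cKO and 115 CPM in WT, a log2 fold change of 0.20 (interval -0.03 to 0.43, adjusted p = 0.466, edgeR). Both cKO libraries were above WT, but the intervals of Arid3a cKO 2 and WT overlapped. Slc15a1 was at 109 and 104 CPM against 120 CPM, a log2 fold change of -0.18 (interval -0.38 to 0.02, adjusted p = 0.457). Slc7a9 had -0.04 (interval -0.26 to 0.19) and Slc3a1 -0.15 (interval -0.34 to 0.05).

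The peptidases and basolateral genes were likewise not called. Anpep was at 1223 and 1133 CPM against 1361 CPM, a log2 fold change of -0.21 (interval -0.52 to 0.09, adjusted p = 0.563). Ace had -0.09 (interval -0.34 to 0.17), Slc7a8 -0.19 (interval -0.42 to 0.05), Slc7a7 0.10 (interval -0.15 to 0.36) and Slc3a2 -0.03 (interval -0.29 to 0.22). The lowest bound over the 9 genes is -0.52 and the highest 0.43. These bounds hold only if WT libraries vary like the cKO pair, which was not measured. A p above the threshold does not show that the levels were equal.

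Against counting error alone, both cKO libraries were below WT with 95% intervals apart for Slc15a1 and Anpep, and both were above WT for no gene. That is 2 of 9, against 12.3% of all genes tested on either side (5.97% lower) and 43.0% of the 1625 genes at or above the level of the lowest of the 9 (14.8% lower). Leaving out Arid3a cKO 1 gave 5 such genes and leaving out Arid3a cKO 2 gave 4. With each enterocyte-like cluster weighted equally the count was 0, with the clusters led by Gm42418 and Isg15 left out it was 4, and with the Ccl20 cluster added it was 5. Equal weights count the Gm42418 and Isg15 clusters (151 and 59 cells) as much as the larger ones. In the Ms4a18 and S100g clusters, taken singly, both cKO libraries were below WT with intervals apart for Anpep and Ace only. Their mean log2 ratios on the CPM + 5 scale were -0.21 and -0.51 for Anpep and -0.24 and -0.37 for Ace. In the Dnase1, Gm42418 and Isg15 clusters this held for neither gene. The share of all genes with such intervals within a cluster was not computed. Over all genes tested in enterocyte-like cells the median log2 ratio on the CPM + 5 scale was 0.00, and over the 9 genes it was -0.08.

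Several marker sums of other cell types differed between the libraries, which was described without a test. Goblet markers summed to 269 and 491 CPM in cKO and 961 CPM in WT enterocyte-like cells, Paneth markers to 360 and 284 CPM against 1027 CPM, and immune markers to 4.07 and 33.2 CPM against 50.3 CPM. Enteroendocrine markers summed to 48.4 and 67.4 CPM against 101 CPM, and tuft markers to 58.1 and 58.5 CPM against 55.5 CPM. Enterocyte markers summed to 97109 and 106836 CPM against 89461 CPM. Ace is also an endothelial gene. In these sums 5 of 6 endothelial markers were at 0 in enterocyte-like cells of every library and their sum was at most 0.458 CPM. Markers of the proximal small intestine summed to 24942 and 26100 CPM against 23818 CPM and distal markers to 525 and 508 CPM against 587 CPM. Fabp1, also on the enterocyte list, made 24212 and 25304 CPM of the proximal sums against 23125 CPM. Slc51a (287 and 277 CPM against 323 CPM) and Slc51b (212 and 210 CPM against 232 CPM) made most of the distal sums. Of 7 proximal genes 5 were higher and 1 lower in both cKO libraries, and of 7 distal genes 1 was higher and 5 lower. The part of any of these in the values of the 9 genes was not tested.

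In ISC- and TA-like cells 6 of the 9 genes were lower in both cKO libraries than in WT. They were Slc15a1, Slc6a19, Anpep, Ace, Slc7a8 and Slc3a1. The share of all genes with this order was not computed, so the count is not read as a result. None of the 9 passed the test, against 0.539% of the 14471 genes tested (0.166% higher and 0.373% lower). DESeq2 also called 0, and 3 genes had an unadjusted p under 0.05. Anpep was at 53.5 and 63.1 CPM in cKO and 89.8 CPM in WT, a log2 fold change of -0.61 (interval -0.91 to -0.32, edgeR adjusted p = 0.0746). It was the 1 gene of the 9 with both cKO libraries on the same side of WT and intervals apart, against 8.22% of all genes tested. That share was not matched for level. Slc15a1 was at 2.13 and 4.71 CPM against 6.70 CPM (-0.97, interval -1.66 to -0.29, adjusted p = 0.378). Ace was at 8.01 and 13.8 CPM against 16.3 CPM (-0.58, interval -1.06 to -0.10, adjusted p = 0.566). Slc6a19 had -0.42 (interval -0.97 to 0.14), and 0.11 without integration. Its value in Arid3a cKO 2 was above WT without integration (6.76 against 5.39 CPM) and at resolution 0.8 (5.63 against 5.39 CPM). In TA-like cells alone both cKO libraries were below WT with intervals apart for Slc15a1 and Anpep, with mean log2 ratios of -0.54 and -0.76 on the CPM + 5 scale. In ISC-like cells alone the mean ratios were -0.42 and -0.31, and this held for neither gene. The share of all genes with such intervals was not computed for either class alone.

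These calls depended on which cells were counted. Once the cells marked as doublets were left out and the rest clustered again, Slc15a1 was at 1.64 and 1.89 CPM in cKO and 5.19 CPM in WT and passed (log2 -1.55, adjusted p = 6.06e-05), as did Anpep (46.1, 43.1 and 73.2 CPM, log2 -0.71, adjusted p = 0.000656) and Ace (5.63, 7.43 and 11.9 CPM, log2 -0.87, adjusted p = 0.00296). Over 11 alternatives the adjusted p of Anpep ran from 0.000656 to 0.349 and that of Slc15a1 from 6.06e-05 to 1. WT was also the highest library in goblet-like cells (Anpep at 70.6, 74.8 and 104 CPM) and in Paneth-like cells (31.7, 27.1 and 56.1 CPM), and WT was highest for Slc15a1 and Ace in Paneth-like cells too. Tuft-like cells, at 38, 20 and 39 cells, had the opposite order. There Anpep was at 104 and 112 CPM in cKO and 65.9 CPM in WT, and Slc15a1 at 17.6 and 24.4 CPM against 4.39 CPM. For neither gene were both cKO intervals apart from that of WT, and Slc15a1 was seen, without thinning, in 2.56% of WT tuft-like cells. Enteroendocrine markers summed to 56.8 and 46.1 CPM in cKO and 826 CPM in WT within the ISC- and TA-like class, and Slc15a1 is present in enteroendocrine-like cells. The part of free RNA and of those cells in the difference was not tested.

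The heterodimer genes had smaller log2 fold changes in the crypt. Slc7a7 was at 29.8 and 30.8 CPM in cKO and 29.6 CPM in WT (log2 0.04, interval -0.27 to 0.35), and Slc3a2 at 74.5 and 83.3 CPM against 77.0 CPM (0.04, interval -0.25 to 0.33). Slc7a9 had 0.08 (interval -0.26 to 0.43), Slc7a8, at 25.5 and 25.2 CPM against 29.1 CPM, -0.19 (interval -0.49 to 0.11) and Slc3a1, at 12.03 and 12.8 CPM against 14.3 CPM, -0.19 (interval -0.53 to 0.15). These intervals are wider than in enterocyte-like cells.

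The difference of the genotype effect between both classes was tested by an interaction term. None of the 9 passed, against 0.343% of the 14866 genes tested (0.114% higher and 0.229% lower), DESeq2 called 0, and 4 had an unadjusted p under 0.05. The log2 difference, enterocyte-like minus ISC- and TA-like, was 0.84 for Slc15a1 (interval 0.28 to 1.40, edgeR adjusted p = 0.354), 0.66 for Slc6a19, 0.55 for Ace and 0.43 for Anpep, and it was between -0.09 and 0.08 for the heterodimer genes. Without doublets Slc15a1 (1.39, adjusted p = 7.45e-05) and Ace (0.81, adjusted p = 0.0368) passed. Over all epithelial cells together 0 of 9 were called, against 0.696% of 16670 genes (0.240% higher and 0.456% lower), with log2 fold changes from -0.17 for Anpep to 0.21 for Slc6a19. DESeq2 called 0 there too, and no gene of the 9 had an unadjusted p under 0.05. Intervals were apart on the same side for 3 of 9 (Slc15a1 and Anpep lower, Slc7a7 higher), against 16.5% of all genes tested. That share was not matched for level, so the count is not read as a result. In enterocyte-like cells the share was 12.3% of all genes tested and 43.0% of genes at or above the lowest level of the 9.

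The rest of the pathway was read from gene lists. Of 7 other apical amino acid transporters 4 were tested in enterocyte-like cells, and Slc36a1, a proton-coupled carrier of small amino acids that is also found in lysosomes, fell. It was at 34.0 and 27.8 CPM in cKO and 63.7 CPM in WT, a log2 fold change of -1.04 (SE 0.11, edgeR adjusted p = 0.000555), and it was called under all 11 alternatives. Over all epithelial cells it was at 18.1 and 14.9 CPM against 30.8 CPM (-0.86, adjusted p = 0.0187, and 0.066 with RLE size factors), and in ISC- and TA-like cells at 6.80 and 5.09 CPM against 8.83 CPM (-0.56, adjusted p = 0.552). The median log2 fold change of the 4 in enterocyte-like cells was -0.31.

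Of 11 other amino acid transporters of the basolateral membrane or of most cells, 6 were tested in enterocyte-like cells and 0 were called by edgeR (1 with an unadjusted p under 0.05, 0 by DESeq2). In ISC- and TA-like cells 10 were tested and 1, Slc43a2, a carrier of branched-chain and aromatic amino acids picked out here after its values were seen, fell from 22.7 CPM in WT to 11.1 and 14.6 CPM in cKO (log2 -0.82, SE 0.17, edgeR adjusted p = 0.0325). DESeq2 (adjusted p = 0.651) and clustering at resolution 0.8 (0.0644) did not call it. Between cell classes this list split, with 2 of 9 tested genes higher in enterocyte-like cells (Slc43a2 and Slc16a10, log2 4.71 and 2.42) and 7 lower, against 39.2% higher and 42.5% lower of all genes tested. Slc7a5 and Slc7a6, light chains that also pair with Slc3a2, and the neutral amino acid carrier Slc1a5 were among the 7. These genes were all picked out after their values were seen. Slc7a5 was at 0.327, 0.0916 and 0.390 CPM in enterocyte-like and 7.72, 5.23 and 6.62 CPM in ISC- and TA-like cells, and Slc1a5 at 1.89, 1.42 and 1.47 CPM against 42.3, 36.8 and 37.7 CPM. Slc3a2 thus rose while Slc7a7 and Slc7a8 rose and Slc7a5 and Slc7a6 fell (log2 -4.00 and -4.02).

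No gene of the peptidase lists was called with genotype in enterocyte-like cells. Of 11 other brush border and extracellular peptidases 10 were tested and 0 were called in enterocyte-like cells (median log2 -0.06, 3 with an unadjusted p under 0.05, 0 by DESeq2), and all 10 were higher in enterocyte-like than in ISC- and TA-like cells (median log2 4.48). Of 9 cytosolic peptidases 0 were called with genotype (median -0.12, 2 with an unadjusted p under 0.05, 0 by DESeq2), and 6 were higher and 1 lower in enterocyte-like cells. Of 9 tested genes of the amino acid response to ATF4, 0 were called with genotype (median 0.09, 1 with an unadjusted p under 0.05, 0 by DESeq2), and between classes 3 were higher and 5 lower of 10. Over all genes tested between classes 39.2% were higher and 42.5% lower, which the ATF4 list was near.

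Of 8 intestinal transcription factors 0 were called with genotype in enterocyte-like cells (median log2 -0.09, 2 with an unadjusted p under 0.05, 0 by DESeq2). Of 7 genes of the proximal small intestine 2 rose. Pdx1, a transcription factor of the duodenum, was at 35.4 and 35.1 CPM in cKO and 19.2 CPM in WT enterocyte-like cells (log2 0.88, SE 0.11, edgeR adjusted p = 0.00295), and Slc40a1, the iron exporter of enterocytes, at 93.3 and 106 CPM against 67.0 CPM (0.57, SE 0.11, adjusted p = 0.0384, and 0.088 by DESeq2). Of 7 distal genes 5 were tested and 0 called (median -0.39, 2 with an unadjusted p under 0.05, 0 by DESeq2). The part of a difference in the stretch of intestine between the samples was not tested.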

How the data were processed

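The authors deposited raw UMI counts per gene and barcode, 1 matrix a library, made with cellranger 5.0.0 per the file headers. The submitters' processing notes name only human genome builds for these mouse libraries, whose gene identifiers are those of mouse, so the build used in counting is uncertain. The annotation and strand setting are not given in the sources used here. Cells with at least 1000 genes and at most 15% mitochondrial UMIs were kept. The 2 cKO libraries held 105912207 and 94614297 UMIs and WT 129243053 over all barcodes. They shared 11, 18 and 16 barcodes pairwise. Cells were integrated and clustered in Seurat 5.3.0 (R 4.3.3, 3000 features, resolution 0.3), leaving out 79 genes (the 9 genes and the pathway lists). Clusters were named from marker lists. Scanpy 1.11.5 gave the pseudotime order. Doublet calls (110 cells, 1.97%) were kept in the cells analysed and left out as an alternative. The per-cell test of the study was replaced, since cells are not replicates. UMIs were summed per library and class and tested with edgeR 4.0.16 (quasi-likelihood, TMM, filterByExpr with a minimum of 10 counts, Benjamini-Hochberg adjustment over all genes tested, called at adjusted p under 0.05), and DESeq2 1.42.0 was an alternative. The edgeR step was tested on simulated counts. It recovered 92.5% of 200 genes changed 4-fold between genotypes in enterocyte-like cells, with 5 false calls, and 80.5% for the interaction. Smaller changes were not simulated, so the share found of changes as small as those of the 9 genes is unknown. The 9 genes and all lists were chosen with earlier results of these data known. All 9 genes are named, together with genes of the lists that passed in enterocyte-like cells and the 3 most alike genes of each. Other list genes named in the text were picked out after their values were seen. Positions are from GENCODE M21, which held 99.6% of the identifiers, and start-site windows from RefSeq. The second WT replicate that the design mentions was not analysed here.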

Additional observations from a re-analysis of the deposited data

Results flagged for a closer look

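Slc6a19, the apical carrier of neutral amino acids, stood out because both cKO libraries were above WT in enterocyte-like cells (143 and 123 against 115 CPM) and both were below WT in ISC- and TA-like cells (4.67 and 8.06 against 8.49 CPM). Neither effect passed the edgeR test, and the 95% interval of each included 0 (-0.03 to 0.43 and -0.97 to 0.14 on the log2 scale). The interaction term was 0.66 on the log2 scale (interval 0.15 to 1.17), with an edgeR adjusted p = 0.520, so the difference did not pass the correction. The crypt direction was not stable. In ISC-like cells alone Slc6a19 was at 3.96 and 8.51 CPM in cKO and 6.50 CPM in WT, and with clustering at resolution 0.8 the ISC- and TA-like values were 4.91 and 5.63 against 5.39 CPM. The ISC- and TA-like fold change was 0.11 without integration and -0.03 at resolution 0.8, against -0.42. In Paneth-like cells the gene was at 1.11 and 1.57 CPM in cKO and 4.90 CPM in WT.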

How the results depend on the processing

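All 9 genes were called higher in enterocyte-like than in ISC- and TA-like cells under all 15 alternatives, and in that comparison the fit with no replicate block called 10879 of 13611 genes. Leaving out each library gave 10796 to 10891 genes. No paired analysis was possible because cKO and WT share only 1 replicate number, and no library can be left out of the cKO against WT tests, which then have no residual degrees of freedom. None of the 9 genes was called with genotype in enterocyte-like cells, or in all epithelial cells, under any alternative. In ISC- and TA-like cells 1 of them was called with RLE size factors or total UMIs, 2 with no filter and 3 without doublets. For the interaction the counts were 1 with no filter and 2 without doublets. Genes called over all epithelial cells were 116, against 60 with RLE size factors, 677 with no filter and 70 without doublets. In enterocyte-like cells they were 178, against 290 with wider cell filters (500 genes, 25% mitochondrial UMIs), 93 by DESeq2, 513 with no filter, 624 without integration, 441 at resolution 0.8, 370 with total UMIs and 351 without doublets. In ISC- and TA-like cells they were 78, against 141, 50, 242, 222 and 149 for the first 5 of these and 241 without doublets. For the interaction they were 51, against 16 by DESeq2, 120 with no filter, 148 without integration, 84 at resolution 0.8, 31 with total UMIs and 116 without doublets. The 2 genes with both cKO libraries on 1 side of WT became 6 without integration, 4 without the clusters led by Gm42418 and Isg15, 5 with the Ccl20 cluster, 0 with equal weights and 4 to 5 with a cKO library left out. The median log2 ratio of -0.08 became -0.17 without integration, -0.16 with the Ccl20 cluster and -0.0199 with equal weights, and -0.12 to -0.04 with a cKO library left out. The median bin difference of -0.01 stayed between -0.053 and 0.045. The settings on the Gm42418, Isg15 and Ccl20 clusters were chosen after seeing the data. The causes were not tested. With 1 WT library the spread of WT is unknown, and at 53 to 157 UMIs for Slc15a1 in ISC- and TA-like cells depth limits its fold change.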

Other observations

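Tuft-like cells, the chemosensory cells of the epithelium, held low levels of the genes. Anpep was at 104, 112 and 65.9 CPM and Slc3a2 at 37.5, 68.3 and 24.2 CPM, the last value of each being WT. The cells number 38, 20 and 39, and their median depth was 0.294 times that of their libraries. In the Isg15 cluster, enterocyte-like cells led by an interferon-induced gene, Slc15a1 was at 152, 134 and 131 CPM and Ace at 426, 348 and 347 CPM.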
